A study of Mus musculus with 6 samples.

Results

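Cd4 and 9 genes beside it on mouse chromosome 6 were followed through RNA-seq of the B cell line A20, in which the Cd4 promoter had been targeted for activation. The genes are Cd4, Lag3, Ptms, Gpr162, P3h3, Gnb3, Cdca3, Usp5, Spsb2 and Mlf2, taken by matching the Entrez gene identifiers of the count files to these symbols. They are 10 of the 27179 genes counted, and 7 of them were among the 12430 genes with enough counts to test. The set is not strictly the nearest genes, since A230083G16Rik and Tpi1 also lie within its span and are no members.

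A20 is a B cell lymphoma line from the BALB/C strain, and each group held 2 libraries from independently repeated samples. Wild-type A20 carried no construct. The other cells carried TETact-v3, in which dCas9 brings the catalytic domain of the DNA demethylase TET1 through SunTag epitopes and the activator p65-hsf1 through MS2 aptamers in the sgRNA, with lentiviral delivery. Control sgRNA cells received a non-targeting sgRNA and Cd4 sgRNA cells an sgRNA against the Cd4 promoter, both assayed on day 7 after sgRNA transduction, so that the control sgRNA group shares every construct with the Cd4 sgRNA group except the target. The measurement is of bulk RNA, in which a few cells with much RNA of a gene and many cells with little cannot be told apart.

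CD4 is the co-receptor of helper T cells. It binds MHC class II on the presenting cell and brings the kinase LCK to the T cell receptor, and B cells keep its gene silent. LAG3, encoded next to it, is a related inhibitory receptor that also binds MHC class II. The other neighbours have no shared function and include genes that most dividing cells use.

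Library totals ran from 23194920 to 121623410 counts, with both control sgRNA libraries the deepest. A floor of 3 counts was used for detection, which is 0.0270 CPM in the deepest library and 0.140 CPM in the shallowest (CPM, counts scaled per 1e+06 after TMM scaling). All 8 B cell markers were measured well, with summed levels of 7310 to 7350 CPM in wild-type A20, 4660 to 7410 CPM in control sgRNA cells and 3900 to 4440 CPM in Cd4 sgRNA cells. Of 14 T cell markers, 6 stayed at or under 3 counts in every library (Cd3d, Cd3e, Cd3g, Cd8a, Cd8b1 and Zap70). The sum over those 14 was 9.51 to 9.85 CPM in wild type, 3.47 to 5.77 CPM with control sgRNA and 4.11 to 4.94 CPM with Cd4 sgRNA. Most of that sum was Cd2, at means of 8.59, 3.36 and 2.91 CPM, while Cd5 was at 0.262, 0.593 and 1.01 CPM.

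All positions are of GRCm38 (mm10), chromosome 6. Cd4 spans 124864693 to 124888247 on the minus strand. Gpr162 (124858444 to 124864195, minus strand) begins 0.497 kb past the 3′ end of Cd4, followed on that side by P3h3 at 6.95 kb, Gnb3 at 24.4 kb, Cdca3 at 31.0 kb, Usp5 at 35.2 kb and Spsb2 at 54.1 kb. On the side of the Cd4 promoter lie Lag3 at 16.1 kb, Ptms at 25.4 kb and Mlf2 at 43.1 kb. Cdca3, Spsb2 and Mlf2 are on the plus strand and the rest on the minus strand. Ptms overlaps the antisense transcript A230083G16Rik, which had at most 15 counts in a library, and Spsb2 overlaps the end of Tpi1, which had up to 194434 counts. Whether the counting used strand is not given in the sources used here, so reads in those overlaps cannot be assigned with certainty.

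Promoter sequences (RefSeq, GRCm38.p6) were at hand for 5 of the 10 genes. The 2 nearest to Cd4, one on each side, are shown because TET1 acts on methylated CpG sites, and they differ in how many they hold. Each runs 5′ to 3′ over 300 bases of its gene's minus strand, P3h3 at chr6:124857668-124857967 and Ptms at chr6:124917897-124918196, with every CG in capitals.
P3h3: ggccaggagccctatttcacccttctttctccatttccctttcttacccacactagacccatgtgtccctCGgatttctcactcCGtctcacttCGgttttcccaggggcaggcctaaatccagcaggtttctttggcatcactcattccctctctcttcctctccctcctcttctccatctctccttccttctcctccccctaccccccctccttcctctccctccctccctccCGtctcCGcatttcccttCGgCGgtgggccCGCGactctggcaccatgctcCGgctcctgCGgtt
Ptms: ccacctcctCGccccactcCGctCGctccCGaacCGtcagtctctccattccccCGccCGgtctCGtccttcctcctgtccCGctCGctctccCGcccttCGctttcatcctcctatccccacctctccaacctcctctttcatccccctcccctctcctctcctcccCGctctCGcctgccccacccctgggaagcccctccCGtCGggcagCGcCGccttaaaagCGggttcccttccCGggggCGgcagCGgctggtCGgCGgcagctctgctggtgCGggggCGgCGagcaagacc
The P3h3 promoter held 11 CG and the Ptms promoter 27. The others held 10 (Cdca3), 20 (Spsb2, in each of its entries) and 32 (Mlf2). Across all 32851 mouse promoters of the same length the median was 7 and the upper quartile 20, and 94.6% held at least 1 CG. CG reads the same on both strands, and its count says nothing about methylation, which was not measured in these files.

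The targeted gene was counted 37 and 17 times in wild-type A20, 127 and 124 times in control sgRNA cells, and 30959 and 40422 times in Cd4 sgRNA cells. Per library this was 0.796 and 0.794 CPM, then 1.14 and 1.53 CPM, then 945 and 913 CPM. Both Cd4 sgRNA libraries stood far above the other 4. In the cells that received the Cd4 sgRNA it was 702-fold higher than with control sgRNA (95% interval 531 to 930), a log2 fold change of 9.46 (SE 0.17, adjusted p = 1.3e-05, from the quasi-likelihood test of edgeR, Benjamini-Hochberg adjusted over all genes tested). Against wild-type A20 it was 1165-fold higher (851 to 1594, log2 fold change 10.19, SE 0.19, adjusted p = 1.7e-05 in the same test).

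Per kb of counted length, Cd4 rose from near the bottom to near the top of all genes tested. Its level was 0.257 ± 0.00053 CPM per kb (SD, n = 2) in wild-type A20, which left 9.90% of tested genes lower, and 0.432 ± 0.089 CPM per kb (SD, n = 2) in control sgRNA cells, which left 11.9% lower. In Cd4 sgRNA cells it was 300.2 ± 7.2 CPM per kb (SD, n = 2), rank 229 of 12430, with 98.2% of genes lower. Cd4 alone took 0.0877% and 0.0834% of all counts in those 2 libraries, more than the 0.0675% and 0.0652% that its 9 neighbours took together.

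**Figure D1:**
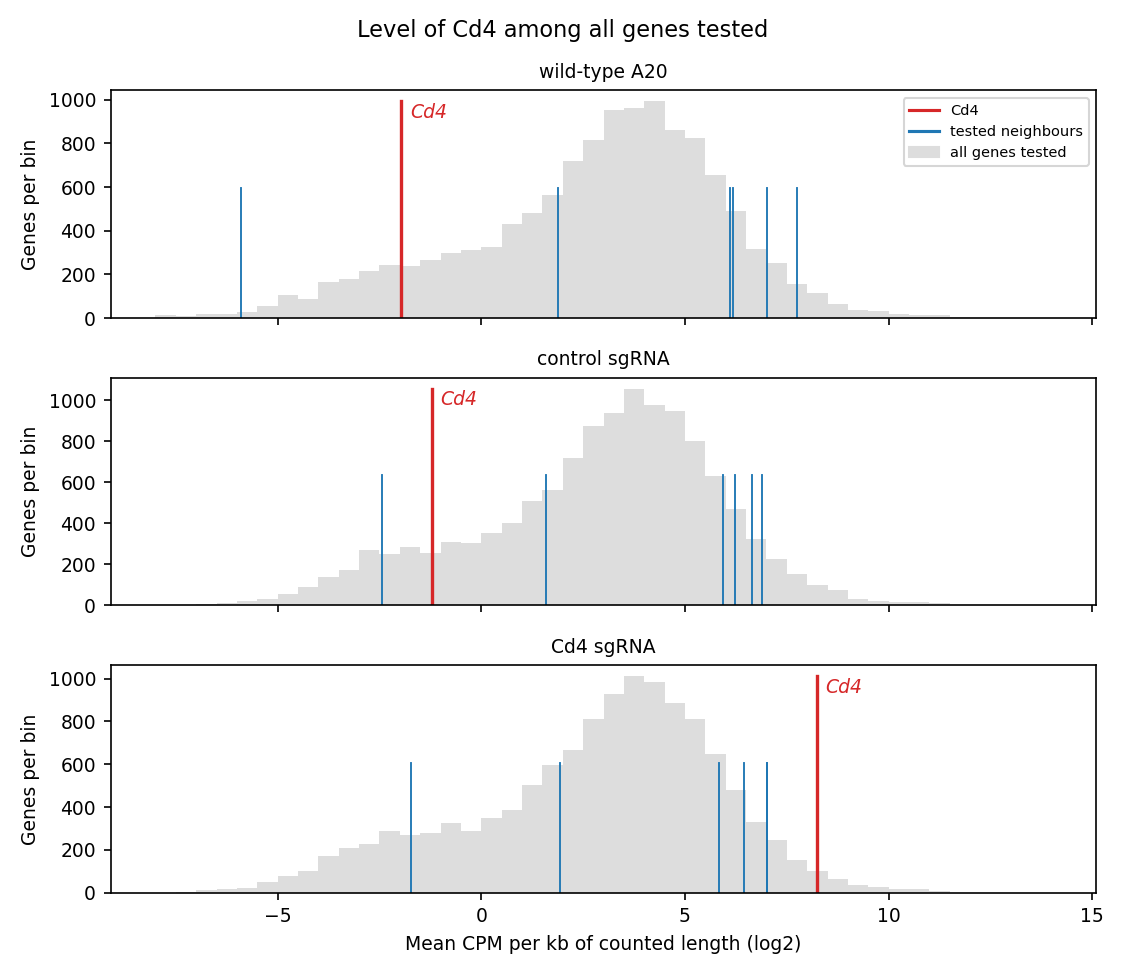
Histograms of the mean level per gene in CPM per kb of counted length (log2 axis) over all genes tested with a level above 0, in each group, with genes per bin of 0.5 on the y axis. The red line of Cd4 moves from the left tail, at 0.257 and 0.432 CPM per kb, to the right tail, at 300.2 CPM per kb, while the blue lines of the tested neighbours keep to the same regions apart from the lowest, Gpr162.

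Cd4 was also counted in cells in which it was not targeted. Both control sgRNA libraries (1.14 and 1.53 CPM) were above both wild-type libraries (0.796 and 0.794 CPM). The 95% Poisson interval of the first control sgRNA library, 0.953 to 1.36 CPM, overlapped those of the wild-type libraries, 0.561 to 1.10 and 0.463 to 1.271 CPM, while that of the second, 1.275 to 1.827 CPM, lay just above both. The ratio of summed CPM of control sgRNA to wild-type cells was 1.64 (counting interval 1.22 to 2.25). These intervals cover counting error only. The log2 fold change of control sgRNA cells against wild-type A20 was 0.73 (SE 0.23, 95% interval 0.16 to 1.30), with an adjusted p = 0.063 in edgeR's test that missed the threshold of 0.05. It passed the threshold without control sgRNA replicate 1 (log2 fold change 0.97), where 64.2% of all genes were called, and without control sgRNA replicate 2 (0.52), where 59.9% were.

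Of the 7 tested genes, 1 was called between Cd4 sgRNA and control sgRNA cells, Cd4, where 0.0724% of all genes tested were called and 0.0241% were called higher. Cd4 was also the only gene of the 7 with an unadjusted p under 0.05, against 24.9% of all genes. The CPM of the groups did not overlap for Cd4, Usp5 and Mlf2 (higher) and Cdca3 (lower), 4 of 7 genes, near the 59.6% of all genes tested whose groups did not overlap (29.5% higher and 30.2% lower). The median log2 fold change of the 6 tested neighbours was 0.27, against -0.0081 over all genes tested. Without regard to sign the medians were 0.27 and 0.24. Over the 32 other genes tested within 500 kb of Cd4 the median log2 fold change was -0.075.

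The count rested on the control sgRNA libraries. Their counts differed from each other with a chi-square of 305 per degree of freedom, against 15.2 for the wild-type and 10.0 for the Cd4 sgRNA libraries, which were less deep. Without control sgRNA replicate 1 the test called 4 of the 8 members then tested (Cd4, Spsb2 and Usp5 higher, Cdca3 lower), where 61.2% of all genes were called. Without control sgRNA replicate 2 it called 4 of 8 (Cd4, Gpr162, Mlf2 and Ptms higher), where 24.9% of all genes were called. Cd4 was the only member in both sets. A group left with 1 library is taken in such a fit to vary like the others.

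**Figure D2:**
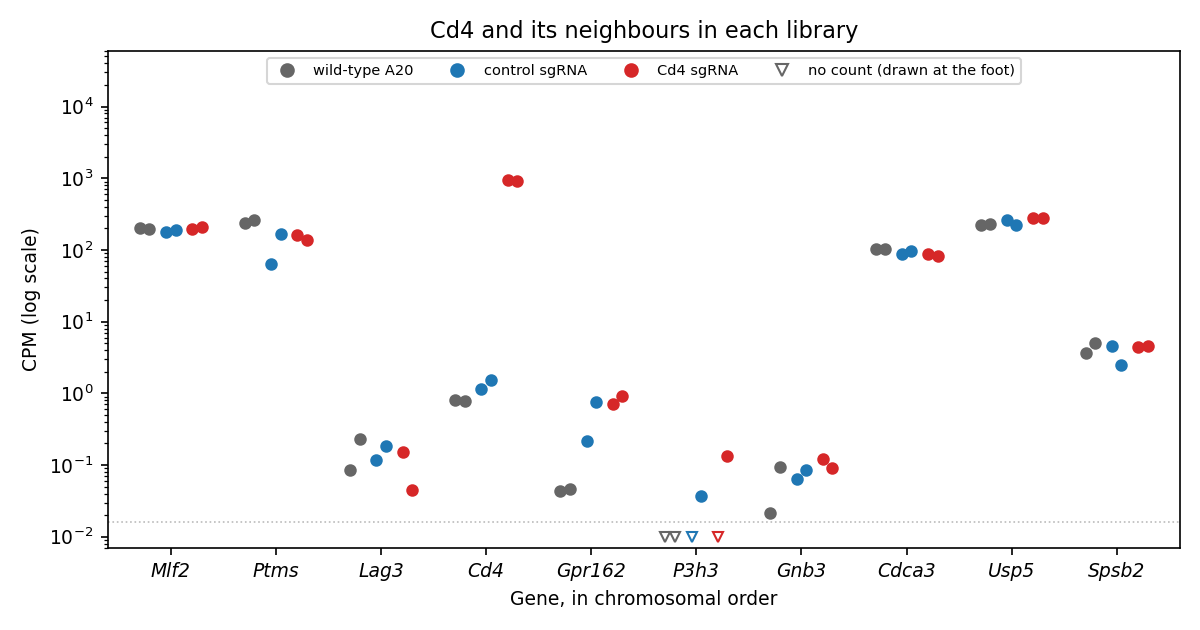
Level of each of the 10 genes in each of the 6 libraries, in CPM on a log axis, ordered along the chromosome from Mlf2 on the promoter side of Cd4 to Spsb2 beyond its 3′ end. Open triangles under the dotted line mark libraries with no count. The Cd4 sgRNA libraries stand apart in Cd4 (945 and 913 CPM), and the wild-type libraries stand apart in Gpr162 (0.0430 and 0.0467 CPM).

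Gpr162, an orphan receptor gene and the gene closest to Cd4, was counted 2 and 1 times in wild-type A20, 24 and 62 times in control sgRNA cells and 23 and 40 times in Cd4 sgRNA cells. This gave 0.0430 and 0.0467 CPM, then 0.216 and 0.766 CPM, then 0.702 and 0.904 CPM. Wild-type libraries were the lowest, and the control sgRNA libraries spread over a range that reached into that of the Cd4 sgRNA libraries.

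Between Cd4 sgRNA and control sgRNA cells, Gpr162 had a ratio of summed CPM of 1.83 (counting interval 1.30 to 2.56, counting error only). Its log2 fold change, in a fit that also takes in the spread of replicates, was 0.83 (SE 0.54, 95% interval -0.43 to 2.09, adjusted p = 0.34 in edgeR's test). The interval spans 0.743-fold to 4.27-fold, so a change of a few fold could not be told from none. This value rested on the control sgRNA libraries, at 0.098 without replicate 1 and at 1.91 without replicate 2.

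Against wild-type A20, Gpr162 was called higher in Cd4 sgRNA cells (log2 fold change 4.14, SE 1.13, adjusted p = 0.040 in edgeR's test). With 3 counts over both wild-type libraries, the ratio of summed CPM was 18.5 with a counting interval of 6.05 to 92.1. In control sgRNA cells the ratio was 10.1 (counting interval 3.35 to 50.1) and the log2 fold change 3.31 (SE 1.18, adjusted p = 0.073). Both comparisons share the wild-type libraries. Gpr162 had enough counts to be tested through the transduced libraries alone, and the call in Cd4 sgRNA cells was lost on leaving out any 1 wild-type or Cd4 sgRNA library (log2 fold changes from 3.93 to 4.29) and with voomLmFit (3.75, adjusted p = 0.056).

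Lag3, the inhibitory receptor gene beside Cd4, stayed near the detection floor in every group. It was counted 4 and 5 times in wild-type A20, 13 and 15 times in control sgRNA cells and 5 and 2 times in Cd4 sgRNA cells. The levels were 0.0861 and 0.234 CPM, 0.117 and 0.185 CPM, and 0.153 and 0.0452 CPM, and the groups overlapped. The ratio of summed CPM of Cd4 sgRNA to control sgRNA cells was 0.623 with a counting interval of 0.230 to 1.46.

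P3h3 and Gnb3 were also too low to test. P3h3, which encodes a collagen prolyl 3-hydroxylase, had no count in 4 libraries, 3 counts in control sgRNA replicate 2 and 6 in Cd4 sgRNA replicate 2. The Poisson intervals of the replicates overlapped in each group. For P3h3 the ratio of summed CPM of Cd4 sgRNA to control sgRNA cells was 4.99 (counting interval 1.06 to 30.8). That interval covers counting error only, and all P3h3 counts of each group came from its replicate 2. Gnb3, a G protein beta subunit gene, had 1 and 2 counts in wild-type A20, 7 and 7 in control sgRNA cells and 4 and 4 in Cd4 sgRNA cells, which is 0.0215 and 0.0934, 0.0630 and 0.0865, and 0.122 and 0.0904 CPM. The Gnb3 ratio of Cd4 sgRNA to control sgRNA cells was 1.42 (counting interval 0.518 to 3.64). In a fit without the filter on low counts (17399 genes), Lag3, P3h3 and Gnb3 had adjusted p-values of 0.66, 0.50 and 0.73 for Cd4 sgRNA against control sgRNA cells in edgeR's test.

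**Figure D3:**
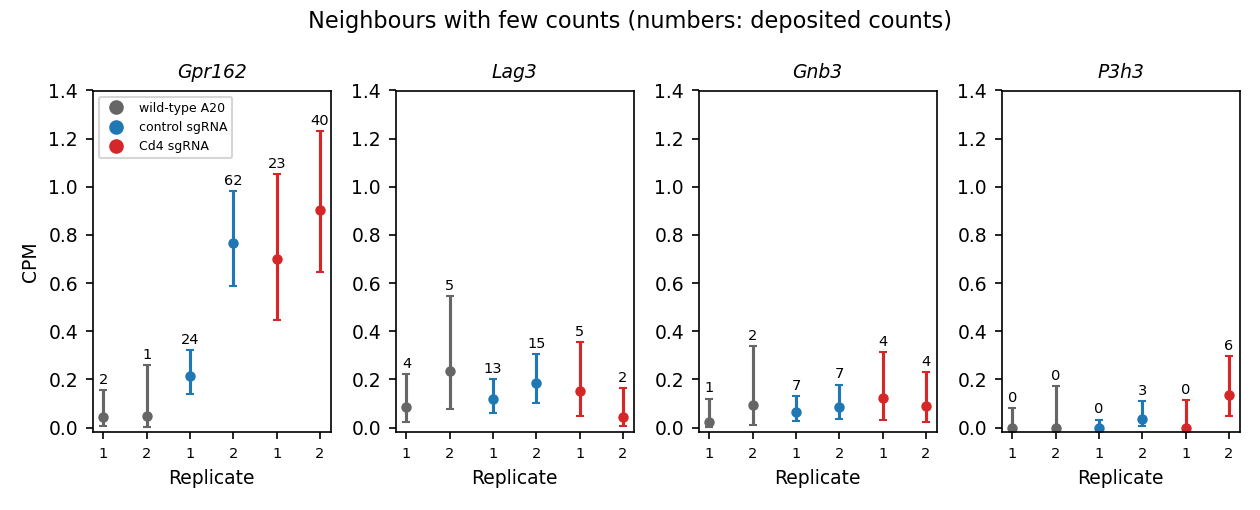
Level in CPM of the 4 neighbours with the fewest counts, per replicate and group, with 95% Poisson intervals that cover counting error only and the deposited count above each. Gpr162 is at 1 or 2 counts in wild-type A20 and at 23 to 62 counts in the transduced cells, while Lag3, Gnb3 and P3h3 stay under 0.3 CPM in every library.

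Ptms encodes parathymosin, a small acidic nuclear protein. Its levels were 237 and 265 CPM in wild-type A20, 63.2 and 166 CPM in control sgRNA cells and 162 and 138 CPM in Cd4 sgRNA cells. Wild-type libraries were the highest, and the Cd4 sgRNA libraries lay between the 2 control sgRNA libraries. Between Cd4 sgRNA and control sgRNA cells the log2 fold change was 0.39 (SE 0.41, 0.661-fold to 2.60-fold, adjusted p = 0.55 in edgeR's test). It was -0.14 without control sgRNA replicate 1 and 1.25 without replicate 2. Against wild-type A20 it was -1.13 in control sgRNA cells (SE 0.41, adjusted p = 0.087) and -0.74 in Cd4 sgRNA cells (SE 0.41, adjusted p = 0.24), both in edgeR's test. Without control sgRNA replicate 1 these values were -0.57 and -0.71, and without replicate 2 they were -1.98 and -0.74.

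Usp5 encodes a deubiquitinase that takes apart free ubiquitin chains. It was at 225 and 233 CPM in wild-type A20, 260.0 and 219 CPM in control sgRNA cells and 278 and 281 CPM in Cd4 sgRNA cells. Cd4 sgRNA libraries were above all others. The log2 fold change against control sgRNA cells was 0.22 (SE 0.10, 0.977-fold to 1.39-fold, adjusted p = 0.24 in edgeR's test) and against wild-type A20 0.28 (SE 0.10, adjusted p = 0.10). Without control sgRNA replicate 1 the first was 0.35, and on leaving out either control sgRNA library the second was 0.31 and 0.28.

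Mlf2, myeloid leukaemia factor 2, had a narrow spread. It was at 199 and 198 CPM in wild-type A20, 176 and 192 CPM in control sgRNA cells and 194 and 208 CPM in Cd4 sgRNA cells. The Cd4 sgRNA libraries were above the control sgRNA libraries by a margin smaller than the gap between replicates. The log2 fold change was 0.13 (SE 0.089, 0.943-fold to 1.27-fold, adjusted p = 0.37 in edgeR's test), and 0.19 without control sgRNA replicate 2.

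Cdca3 acts in entry into mitosis, as part of a ubiquitin ligase. It was at 103 and 102 CPM in wild-type A20, 87.9 and 95.1 CPM in control sgRNA cells and 87.7 and 81.9 CPM in Cd4 sgRNA cells. Wild-type libraries were the highest and Cd4 sgRNA libraries the lowest, by small margins. Its log2 fold change between Cd4 sgRNA and control sgRNA cells was -0.11 (SE 0.087, 0.800-fold to 1.07-fold, adjusted p = 0.43 in edgeR's test), and -0.16 without control sgRNA replicate 1. Against wild-type A20 it was -0.27 in Cd4 sgRNA cells (SE 0.088, adjusted p = 0.076), past the threshold without control sgRNA replicate 1 (-0.24) or replicate 2 (-0.27), where 59.3% and 59.7% of all genes were called.

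Spsb2, the substrate receptor of a ubiquitin ligase and the member farthest from Cd4, was at 3.59 and 5.09 CPM in wild-type A20, 4.59 and 2.51 CPM in control sgRNA cells and 4.39 and 4.56 CPM in Cd4 sgRNA cells. The 3 groups overlapped. From control sgRNA to Cd4 sgRNA cells the log2 fold change was 0.32 (SE 0.32, 0.722-fold to 2.14-fold, adjusted p = 0.54 in edgeR's test). It was -0.033 without control sgRNA replicate 2 and 0.84 without replicate 1. Tpi1, the triosephosphate isomerase gene that overlaps its end, had a log2 fold change of -0.33 in the same comparison (SE 0.091, adjusted p = 0.14).

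**Figure D4:**
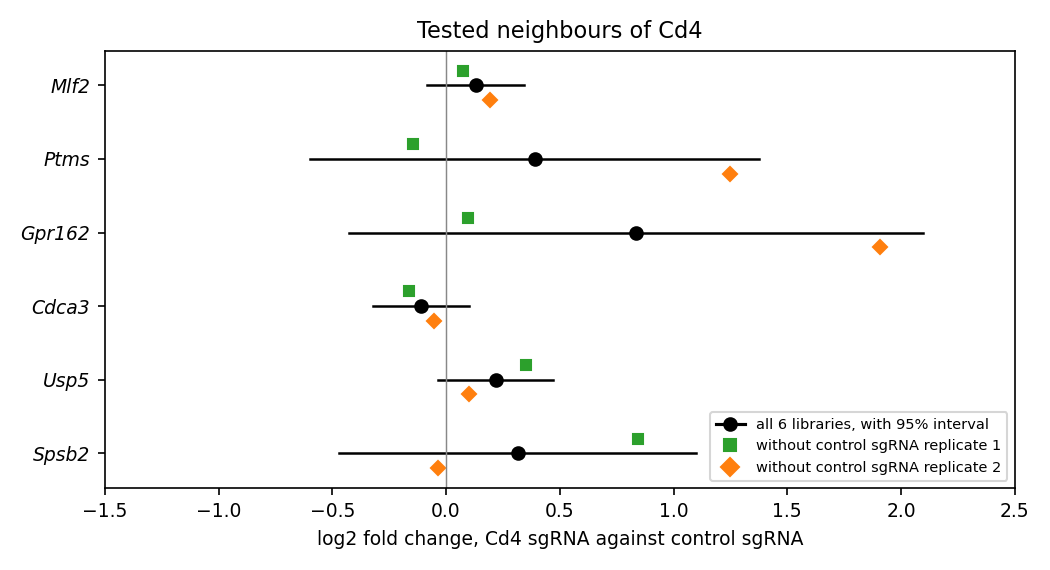
Log2 fold change of the 6 tested neighbours, Cd4 sgRNA against control sgRNA cells, with the 95% interval of the fit of all 6 libraries (black) and the values without either control sgRNA library (green and orange). The black intervals all include 0, and Ptms and Gpr162 lie near 0 without replicate 1 (-0.14 and 0.098) and above 1 without replicate 2 (1.25 and 1.91).

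Per kb of counted length, the order of the tested neighbours was Ptms, Mlf2, Usp5, Cdca3, Spsb2 and Gpr162 in wild-type A20, with means of 217, 129, 72.2, 68.7, 3.68 and 0.0168 CPM per kb. Usp5 and Cdca3 lay close together there, at SDs of 1.8 and 0.52 CPM per kb. In Cd4 sgRNA cells Ptms and Mlf2 were level, at 130.0 ± 15.0 and 130.2 ± 6.5 CPM per kb (SD, n = 2). Cd4 stood above all of them there, and below all but Gpr162 in both other groups.

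Between control sgRNA and wild-type cells, edgeR's test called 0 of the 7 genes, against 28% of all genes tested, while 3 (Cd4, Gpr162 and Ptms) had an unadjusted p under 0.05, against 42.6% of all genes. DESeq2 called 2 of the 7, where it called 33.4% of all genes, and voomLmFit called 0. Between Cd4 sgRNA and wild-type cells edgeR's test called 2 of 7 genes (Cd4 and Gpr162), against 20.5% of all genes tested and 9.84% called higher. DESeq2 called the same 2, where it called 28.6% of all genes. Since Gpr162 had enough counts to be tested through the transduced libraries alone, its call is no support for any of these counts. These 2 comparisons share the wild-type libraries. In a fit of Cd4 sgRNA and wild-type cells alone, 5 of 7 members were called (Cd4, Gpr162 and Usp5 higher, Cdca3 and Ptms lower), where 61.8% of all genes tested were called. The median log2 fold change of the 6 neighbours was -0.14 in the first and 0.059 in the second.

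A further 44 genes within 500 kb of Cd4 were in the count files and 32 of them were tested. Between Cd4 sgRNA and control sgRNA cells edgeR called 0 of the 32, voomLmFit also 0 and DESeq2 8, where DESeq2 called 12.3% of the genes to which it gave an adjusted p. At the same time 14 had an unadjusted p under 0.05 (43.8%, against 24.9% of all genes tested). Of the 14, 6 were higher and 8 lower, against 11.3% and 13.6% of all genes. The smallest p-values were those of Tapbpl, which takes part in loading of MHC class I (log2 fold change 0.73, adjusted p = 0.10 in edgeR's test), Clstn3 (-0.62, adjusted p = 0.11) and the glycolytic enzyme gene Eno2 (-2.74, adjusted p = 0.12). Eno2 was at 27.4 and 95.8 CPM in control sgRNA cells and at 9.31 and 9.15 CPM in Cd4 sgRNA cells. Without control sgRNA replicate 1 the test called 12 of these genes higher and 13 lower, and without replicate 2 it called 5 higher and 6 lower, where 61.2% and 24.9% of all genes were called.

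Calls were more frequent against wild-type A20, both in the window and over all genes tested, so the rise was not particular to the window. With control sgRNA cells as the reference, 0.0724% of all genes were called. In control sgRNA cells 12 of 32 genes were called (37.5%, against 28% of all genes tested, 14.5% higher and 13.5% lower), with Atn1, Clstn3, Emg1, Eno2, Lpcat3 and Tuba3a higher and Grcc10, Iffo1, Ing4, Lpar5, Vamp1 and Zfp384 lower. In a fit of those 2 groups alone 5 were called, where 12.5% of all genes were. In Cd4 sgRNA cells 8 were called (25%, against 20.5% of all genes, 10.7% lower), with Clstn3, Emg1, Ptpn6 and Tuba3a higher and Grcc10, Ing4, Lpar5 and Vamp1 lower. Both sets of calls rest on the same wild-type libraries. The alpha tubulin gene Tuba3a, 390 kb from Cd4, was counted 1 and 0 times in wild-type A20, 970 and 431 times in control sgRNA cells and 249 and 338 times in Cd4 sgRNA cells. Lpar5, a lysophosphatidic acid receptor gene, was at 7.38 and 6.54 CPM in wild-type A20, 0.801 and 0.705 CPM in control sgRNA cells and 1.19 and 0.881 CPM in Cd4 sgRNA cells. In both genes the wild-type libraries stood apart from the transduced ones. Tuba3a had enough counts to be tested through the transduced libraries alone, so its call is no support for either count.

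**Figure D5:**
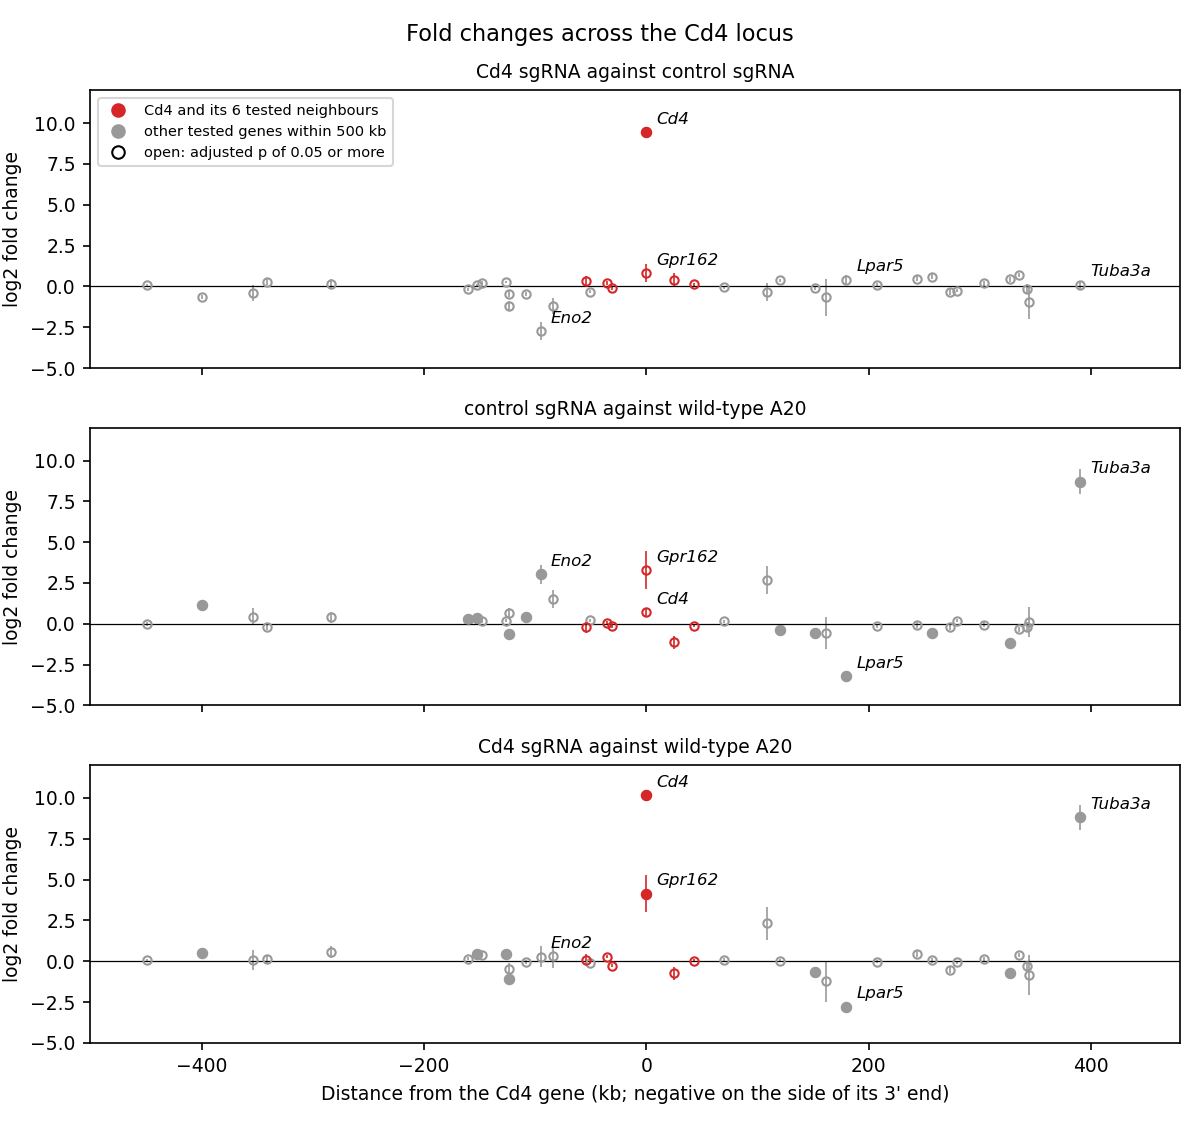
Log2 fold change with its standard error (y axis) of each tested gene by distance from Cd4 in kb (x axis, negative beyond the 3′ end of Cd4), in the 3 comparisons, with filled points called at an adjusted p under 0.05 in edgeR's test. In the top panel Cd4, at 9.46, is the 1 filled point, and the other panels show Tuba3a and Lpar5 far from 0 against wild-type A20. The fitted value of Tuba3a rests on 1 count in wild type.

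The genes whose level followed that of Cd4 most closely over the 6 libraries were Galr3, Ncf4, Crebzf, Fbxo34 and Qrsl1, with Pearson r of log2 CPM from 0.997 to 0.989. These r values describe 6 libraries of unequal depth in 3 groups, in which Cd4 has in effect a low and a high level. The sizes differed greatly from that of Cd4, with log2 fold changes of 0.46, 0.56, 0.49, 0.076 and 0.37 between Cd4 sgRNA and control sgRNA cells, and none of the 5 was called there, at adjusted p-values from 0.098 (Ncf4) to 0.55 (Fbxo34) in edgeR's test. Against wild-type A20, edgeR's test called 3 of the 5 higher in Cd4 sgRNA cells, where 9.84% of all genes were. These were Ncf4 (0.69, adjusted p = 0.0050), Crebzf (0.60, adjusted p = 0.0082) and Qrsl1 (0.38, adjusted p = 0.045). The 5 genes were picked for following Cd4 over these same libraries, so their calls are no support for a link with Cd4. Galr3, a galanin receptor gene, had between 4 and 22 counts per library. Among the neighbours r with Cd4 was 0.84 for Usp5, 0.71 for Gpr162, 0.43 for Mlf2, 0.28 for Spsb2, -0.10 for Ptms and -0.78 for Cdca3.

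CD4 and LAG3 act through a small set of partner and ligand molecules. Of 16 partner and ligand genes, 9 were tested and Cd3d, Cd3e, Cd3g, Fgl1, Lgals3 and Clec4g had at most 3 counts in every library. Between Cd4 sgRNA and control sgRNA cells 0 of the 9 were called in edgeR's test and 0 with voomLmFit, while DESeq2 called 2, where it called 12.3% of all genes. In edgeR's test 2 of the 9 had an unadjusted p under 0.05, near the 24.9% of all genes. Their median log2 fold change was -0.13, against -0.0081 over all genes tested. Lck, the kinase that CD4 binds, was at 0.720 and 0.816 CPM in control sgRNA cells and 0.763 and 0.791 CPM in Cd4 sgRNA cells. Against wild-type A20, 4 of the 9 were lower in control sgRNA cells (Ciita, Il16, H2-Aa and Ptprc), where 13.5% of all genes were called lower, and 4 in Cd4 sgRNA cells (Il16, H2-Aa, H2-Ea and H2-Eb1), where 10.7% were. H2-Aa, a chain of the MHC class II ligand of CD4, was at 1301 and 1357 CPM in wild-type A20, 862 and 1026 CPM in control sgRNA cells and 886 and 837 CPM in Cd4 sgRNA cells.

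Of 17 transcription factors known to act on the Cd4 gene, 13 were tested, and Bcl11b and Satb1 had at most 3 counts in every library. Between Cd4 sgRNA and control sgRNA cells 0 of the 13 were called in edgeR's test and 0 with voomLmFit, with a median log2 fold change of -0.096. At an unadjusted p under 0.05 there were 9 of 13 in edgeR's test, against 24.9% of all genes, and DESeq2 called 6, against its 12.3%. Against wild-type A20, 4 of the 13 were called in control sgRNA cells, near the 28% of all genes, and 4 in Cd4 sgRNA cells, where 20.5% of all genes were. Runx3, which silences Cd4 in the CD8 lineage, was higher in control sgRNA cells (log2 fold change 0.97) and in Cd4 sgRNA cells (0.66). Myb was higher in both (0.36 and 0.58), Tcf12 lower in both (-0.50 and -0.59), Tox higher in control sgRNA cells (0.68) and Ets1 lower in Cd4 sgRNA cells (-0.96). Zbtb7b, the factor of the CD4 lineage, was at 41.5 and 72.2 CPM in control sgRNA cells and 35.1 and 36.7 CPM in Cd4 sgRNA cells, with a log2 fold change of -0.66 (SE 0.25, adjusted p = 0.18 in edgeR's test).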

How the data were processed

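Bulk RNA-seq libraries of A20 cells formed 3 groups of 2 replicates, as the sample labels give them. Libraries were of poly(A) RNA, and Rsubread was used in the study to align the read pairs to mm10. The deposited values are raw counts per Entrez gene, which the authors made with featureCounts and its inbuilt RefSeq annotation, and a length in bp of the counted exons of each gene. The strand setting and the treatment of shared reads are not given in the sources used here. A series table repeats the counts and was not used, and 0 columns of per-sample values were left aside.

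RefSeq gene entries for GRCm38.p6 gave symbols and positions, with 25275 of 27179 identifiers matched. After the annotation filter of the study and filterByExpr, 12430 genes were scaled by TMM and fitted in R 4.3.3 with edgeR 4.0.16 (glmQLFit and glmQLFTest, robust, 1 term per group, on all 6 libraries). Tests were two-sided, p-values were adjusted after Benjamini and Hochberg, and calls were made at 0.05. The tested genes held 86% to 95% of each library's counts. Standard errors are the log2 fold change over the square root of F. The study used voomLmFit, which was run as an alternative (limma 3.58.1), as was DESeq2 1.42.0. Further alternatives were RLE factors, library size alone, no filter or a stricter filter on low counts, no annotation filter, the 2 groups alone, a replicate block, thinned counts and each library left out. Removal of immunoglobulin and T cell receptor segments and a crossed block were chosen after seeing the data. Poisson and binomial intervals are at 95%. With 2 libraries against 2, an exact permutation test cannot go below p = 0.333, so calls rest on the model. Replicates of a group differed by more than counting noise (each group's chi-square was over 10 per degree of freedom) and were kept apart. The fits were also run on simulated counts that gave every gene the same spread and the changed genes large changes. Those settings differ from the data, so that run was a check of the code only.

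The members and gene lists were chosen with earlier results of these data known. Named genes are all members, genes within 500 kb that were called or had the 3 smallest p-values in a comparison, the 5 genes most like Cd4 by Pearson r of log2 CPM (prior count 2), list genes that were called (up to 4) or had at most 3 counts everywhere, and genes lying between members. The levels of Lck and Zbtb7b are shown outside this rule and were chosen after their values were seen. Methylation data were not analysed here. The result of 1 marker gene is not reported here.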

Additional observations from a re-analysis of the deposited data

How the results depend on the processing

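Cd4 was called higher in Cd4 sgRNA cells in all 18 alternatives of both comparisons, at log2 fold changes of 9.25 to 9.73 against control sgRNA and 10.13 to 10.23 against wild-type cells. Leaving out each library in turn gave 9.25 to 9.66 and 10.16 to 10.22. Between control sgRNA and wild-type cells, Cd4 passed the threshold with DESeq2 (0.74), without the annotation filter (0.73) and with a crossed block (0.76), and its leave-one-out range was 0.52 to 0.97. With counts thinned to the shallowest library it was 0.39 (adjusted p = 0.28 in edgeR's test), the lowest value of the 18 alternatives. Gpr162 passed it there with DESeq2 and a crossed block (3.46 in both), with leave-one-out values of 2.23 to 4.05. Against wild-type cells Gpr162 in Cd4 sgRNA cells lost its call with voomLmFit (3.75) and ranged from 3.93 to 4.29 on leaving out libraries, and against control sgRNA cells from 0.098 to 1.91. It was too low for the filter of CPM of at least 1 and gave no value there. The cause of these shifts was not tested.

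Directions turned for Ptms (leave-one-out range -0.14 to 1.25, lowest without control sgRNA replicate 1) and Spsb2 (-0.033 to 0.84, lowest without control sgRNA replicate 2) between Cd4 sgRNA and control sgRNA cells. Between control sgRNA and wild-type cells they turned for Usp5 (-0.041 to 0.18, lowest without control sgRNA replicate 1) and Spsb2 (-0.69 to 0.16, and above 0 without wild-type A20 replicate 2, at 0.023, or control sgRNA replicate 2). For Cd4 sgRNA against wild type they turned for Spsb2 (-0.16 to 0.34, lowest without wild-type A20 replicate 1) and Mlf2 (-0.035 to 0.067, lowest without Cd4 sgRNA replicate 2). None of these 7 values had passed the threshold with all libraries.

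On leaving out libraries, members called higher and lower ranged from 1 to 4 and 0 to 1 (Cd4 sgRNA against control sgRNA), 0 to 3 and 0 to 3 (control sgRNA against wild type) and 1 to 3 and 0 to 2 (Cd4 sgRNA against wild type). Window genes ranged from 0 to 12 and 0 to 13, from 0 to 13 and 1 to 10, and from 0 to 11 and 0 to 5. Calls over all genes also swung widely between the fits with a library left out, so these ranges are not particular to the members or the window. DESeq2 called 4 window genes higher and 4 lower between Cd4 sgRNA and control sgRNA cells. It called 2 members higher in control sgRNA than in wild-type cells, where 2193 of all genes were. In Cd4 sgRNA against wild-type cells it called 7 window genes higher, where 1737 of all genes were. Over all genes it called 528 higher and 881 lower in the first, against 3 and 6 with edgeR, which called 3887 and 3952 without control sgRNA replicate 1 and 1530 and 1619 without replicate 2. For control sgRNA against wild type, 1 member was higher without the annotation filter, where 1861 of all 12811 genes tested were higher and 1791 lower. With a crossed block 2 members were higher and 1 lower, where 1878 and 1688 of 12430 genes were. In the same comparison voomLmFit called 3 window genes higher, where 1546 of all genes were, and the fit of the 2 groups alone called 3 higher and 2 lower. For Cd4 sgRNA against wild type, 1 member was higher with voomLmFit and with the CPM filter, where 1019 and 1209 of all genes were higher. The fit of the 2 groups alone called 2 members lower and 10 window genes higher. Over all genes it called 3766 higher and 3685 lower, against 1223 and 1325 with all libraries. The corresponding fit for control sgRNA against wild type called 835 and 736, against 1806 and 1674.

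Replicate numbers were shared by the groups, and deviations from the group means correlated at -0.032, 0.020 and -0.14 between groups. Such correlations cannot show whether the libraries were prepared in pairs, and the main fit used no block. With the replicate number as a block, 1 member was called between control sgRNA and wild-type cells (Gpr162, 3.13) and 3 window genes were higher there. Of the 12430 genes tested, 1550 were called higher and 1420 lower in that fit and comparison. In Cd4 sgRNA against wild-type cells 2 window genes were higher, where 969 of all genes were. Over all genes 2 were higher and 5 lower in Cd4 sgRNA cells against those with control sgRNA. The crossed block was added after seeing the data because 1 correlation was below -0.1.

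Depth limited Lag3, P3h3, Gnb3 and, in wild-type cells, Gpr162, where a handful of counts sets the level.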

Other observations

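Of the 14 T cell markers, 4 were tested. Against wild type, 1 was called in control sgRNA cells and 2 in Cd4 sgRNA cells, where 28% and 20.5% of all genes were. The adhesion gene Cd2 was lower against wild type in both groups (-1.38 with control sgRNA and -1.57 with Cd4 sgRNA). Cd5, which some B cells also use, was at 0.151 and 0.374 CPM in wild-type A20, 0.432 and 0.754 CPM with control sgRNA and 1.10 and 0.926 CPM with Cd4 sgRNA, a log2 fold change of 2.16 for the last against wild type (adjusted p = 0.048 in edgeR's test). Cd5 had enough counts to be tested only through the transduced libraries, so its call is no support for the count in Cd4 sgRNA cells.

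Tuba3a, in the window around Cd4, had summed counts of 1 in wild-type A20, 1401 with control sgRNA and 587 with Cd4 sgRNA. The ratio of summed CPM of control sgRNA to wild-type cells was 495 (counting interval 88.7 to 19576), and that of Cd4 sgRNA to control sgRNA cells 1.04 (0.947 to 1.15). The cause was not tested.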
